A study of Mus musculus with 12 samples.

Results

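The immediate early genes Fos, Fosb, Jun, Junb, Jund, Atf3, Egr1, Ier2, Ier3 and Myc were followed in sorted mouse hepatocytes. They were taken by name from the table of read counts, after its Ensembl identifiers were matched to mouse symbols, and 10 of 10 were found among 54839 features. The 10 genes also passed the filter on low counts, which left 17121 genes for testing. RNA-seq libraries came from hepatocytes of male p16-Tom mice, which were heterozygous on a C57BL/6 background and carried p16-CreERT2 together with R26-CAG-LSL-tdTomato-WPRE. In these animals a Cre recombinase that needs tamoxifen is made where the p16Ink4a gene is active, so the driver is not restricted to hepatocytes, and tdTomato stays on in a cell once it has been recombined. CCl4, which is toxic to the liver cells that metabolize it, was injected in corn oil at 1 mL/kg every 3 days over 4 weeks, control mice received corn oil alone, and tamoxifen was given at 80 mg/kg in both arms. Livers were perfused with collagenase, and live tdTomato-positive (Tom+) and tdTomato-negative (Tom-) cells were separated by flow cytometry. This gave 4 groups of 3 libraries, namely Tom- oil, Tom+ oil, Tom- CCl4 and Tom+ CCl4. The sources do not say whether the Tom+ and Tom- libraries with one replicate number came from one mouse, nor whether the replicates were separate animals, so p-values measure the spread between these libraries, which may be technical.

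Immediate early genes are switched on within minutes of a stimulus, from transcription factors that already sit in the cell, and their messages are usually short-lived. FOS, FOSB and ATF3 pair with JUN, JUNB or JUND to form AP-1 and related dimers, EGR1 is a zinc finger factor, and MYC pairs with MAX to drive growth genes. In the liver, JUN and MYC are known for their part in regeneration after tissue loss, and the group as a whole is also known to respond to enzymatic dissociation of tissue into single cells.

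Total counts per library lay between 37568584 and 75331424, so that 3 counts, taken as the lowest level the depth can show, stood for 0.0369 to 0.0829 CPM (counts scaled to library size, after TMM normalization), a limit that covers counting error only. The deposited feature taken here as the tdTomato reporter had 1316 to 1369 CPM in Tom+ CCl4 and 120 to 263 CPM in Tom- CCl4. In oil it went against 2 labels. Replicate 1 labelled Tom- oil reached 1794 CPM and replicate 2 labelled Tom+ oil only 135 CPM, so that replicate 3 was the only oil pair in which the reporter separated the fractions as labelled. Labels were kept as deposited, and the main calls of CCl4 against oil within a fraction are given with and without these 2 oil libraries. CCl4 was also compared with oil after the counts of the same-numbered Tom+ and Tom- libraries were summed. The sums do not depend on which library of a number is labelled Tom+, but they do depend on the replicate numbers. Both libraries of oil replicate 1 were high in the reporter (1794 and 1546 CPM) and both of oil replicate 2 low (157 and 135 CPM). Each CCl4 sum joined a high and a low library. The hepatocyte markers Alb, Apoa1, Ttr, Serpina1c, Cps1 and Hnf4a summed to between 89012 and 133868 CPM. Most of this sum was Alb, at 73423 to 119023 CPM. Of the 6, Cps1 alone passed the thresholds given below as lower with CCl4 in Tom+ (log2 -0.93, edgeR adjusted p = 0.00123), and 0 passed in Tom-. The 6 stellate cell and fibroblast markers summed to 6.28 to 20.0 CPM in the oil libraries and 45.6 to 90.6 CPM in the CCl4 libraries, and 6 endothelial markers to 83.9 to 154 CPM in oil, 212 to 229 CPM in Tom- CCl4 and 111 to 150 CPM in Tom+ CCl4. In such bulk samples fewer cells of a type and less RNA per cell cannot be told apart.

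The bases just before the start of transcription are shown for the members whose start in RefSeq (GRCm38.p6) lay at or near that of the deposited gene, since these genes share short control elements there. The 130 bases end before the deposited or RefSeq start, whichever lies further upstream, at chr12:85473760-85473889 (plus strand) for Fos, chr7:19310052-19310181 (minus strand) for Fosb, chr4:95052223-95052352 (minus strand) for Jun, chr8:84978749-84978878 (minus strand) for Junb and chr17:35821554-35821683 (plus strand) for Ier3. Capitals mark TGACG, the core of the cyclic AMP response element bound by CREB and ATF factors, TGACATCA, an AP-1-like element known from the Jun promoter, and TATAA, the core of the TATA box.
Fos: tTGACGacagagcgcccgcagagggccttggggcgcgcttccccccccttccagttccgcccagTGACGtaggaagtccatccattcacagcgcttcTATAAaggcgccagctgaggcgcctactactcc
Fosb: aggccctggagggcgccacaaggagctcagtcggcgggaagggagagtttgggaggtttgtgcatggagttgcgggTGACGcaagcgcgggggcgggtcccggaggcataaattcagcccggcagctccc
Jun: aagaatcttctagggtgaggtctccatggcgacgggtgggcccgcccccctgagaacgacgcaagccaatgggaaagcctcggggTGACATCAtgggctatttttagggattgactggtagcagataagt
Junb: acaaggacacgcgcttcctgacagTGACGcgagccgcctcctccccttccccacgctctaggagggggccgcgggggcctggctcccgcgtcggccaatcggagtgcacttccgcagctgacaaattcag
Ier3: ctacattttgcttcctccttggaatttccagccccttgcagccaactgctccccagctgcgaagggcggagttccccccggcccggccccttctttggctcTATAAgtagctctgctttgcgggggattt
RefSeq promoter windows were matched for 7 of the 10 members, Egr1, Ier2 and Myc having none in the table used. In the 250 bases before the start, TGACG was found on either strand in 4 of the 7 (Atf3, Fos, Fosb and Junb) and in 17.8% of 32851 promoters, TGACATCA in Jun alone of the 7 and in 2.93% of promoters, and TATAA on the gene's strand in Fos and Ier3 and in 16.0% of promoters. Within these 250 bases the CArG box, the core of the serum response element, was in 0 of the 7 and in 1.47% of promoters. Bases further upstream, and the promoters of Egr1, Ier2 and Myc, were not searched, so this does not show that the members lack the element. These are matches of letters and were not tested for binding.

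Per length of transcript, the members spanned a wide range of levels. Jund was the highest, with a mean of 121 ± 11.9 TPM (reads per length of gene, scaled to one total in each library; SD, n = 12 libraries), followed by Ier2 at 43.9 ± 9.26 TPM, Junb at 34.8 ± 6.51 TPM, Jun at 25.9 ± 6.43 TPM and Egr1 at 24.0 ± 9.83 TPM. Fos had 12.4 ± 8.41 TPM, Myc 3.67 ± 1.69 TPM, Ier3 1.36 ± 1.10 TPM, Atf3 0.819 ± 0.419 TPM and Fosb 0.105 ± 0.121 TPM. The order of neighbours was kept in 11 or 12 of the 12 libraries, except that Jun was above Egr1 in 8 and Ier3 above Atf3 in 8. Jun and Egr1, and likewise Ier3 and Atf3, were therefore not separated beyond their spread. The mean of Jund was at or above that of 94.5% of the genes that passed the filter, whereas the mean of Fosb, with 0 to 40 counts per library, was so for 2.38%. The Jund locus (chromosome 8, 70698949 to 70700616) is overlapped on the opposite strand by Gm11175, which had 39.0 to 53.4 CPM before TMM scaling, Junb overlaps the end of Prdx2, and Jun is overlapped by Junos, which had 1.48 to 3.95 CPM before TMM scaling. The libraries were strand-specific but the strand setting of the counting was not given in the sources used here, so reads of Jund, Junb and Jun may include those of their partners, and the reverse.

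**Figure D1:**
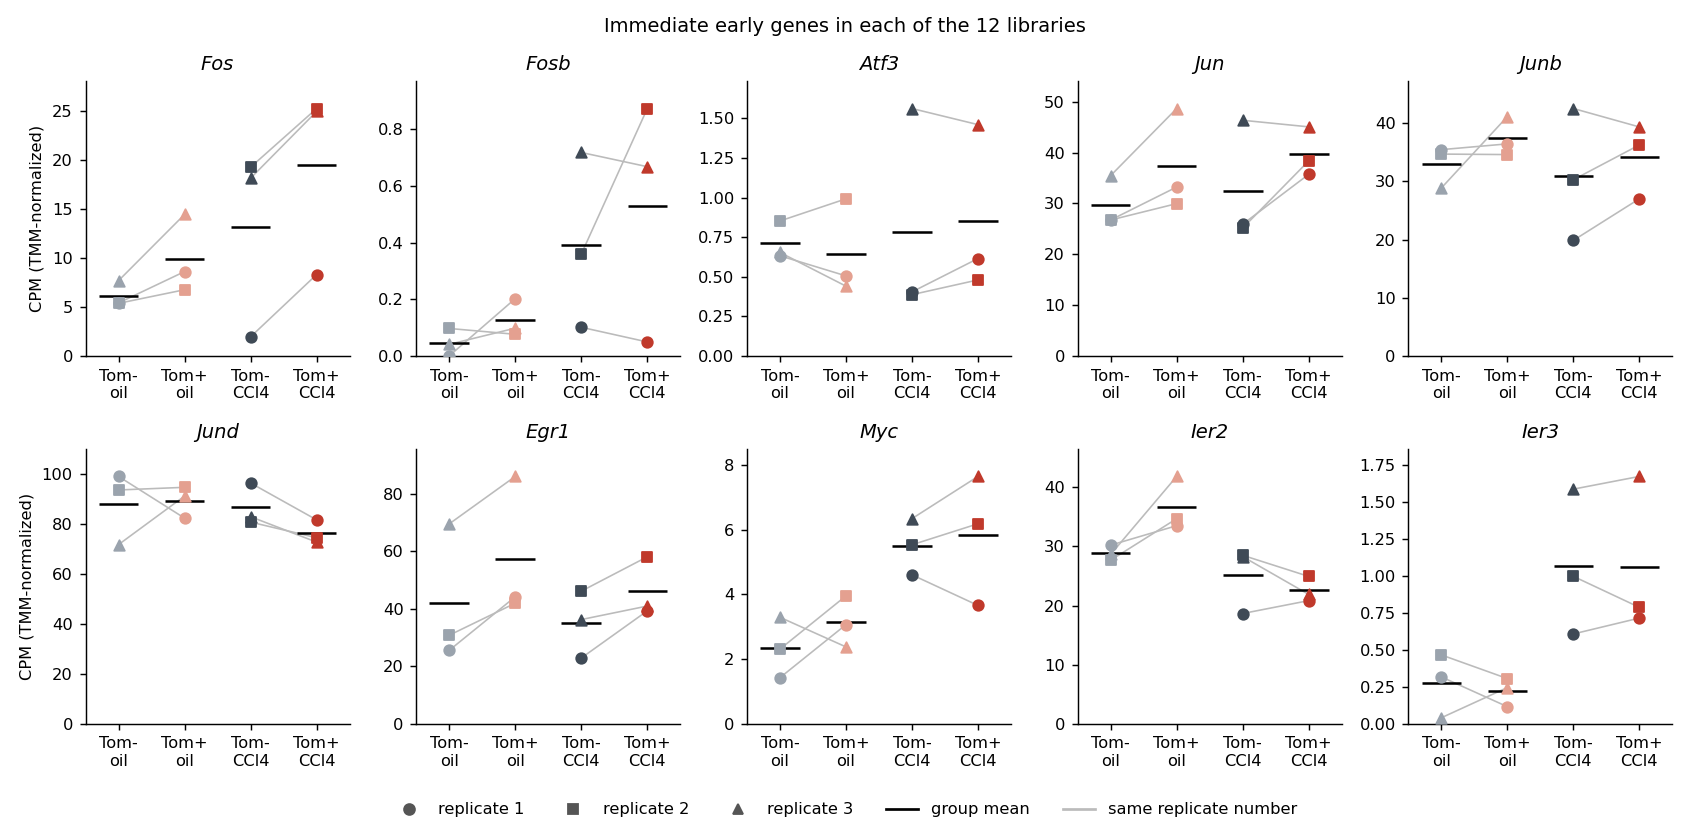
CPM (TMM-normalized, linear axes from 0) of the 10 members in each library, by group, with marker shape for the replicate number, black lines for group means and grey lines joining Tom- and Tom+ libraries of one number. Ier3 was between 0.0409 and 0.465 CPM in the 6 oil libraries and between 0.607 and 1.67 CPM in the 6 CCl4 libraries, while Fos, Fosb and Junb were lowest in replicate 1 of both CCl4 groups.

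The first question was whether CCl4 treatment changed the members. The time between the last injection and cell isolation was not given in the sources used here. A short response after a dose may therefore not be seen in these libraries. Myc passed the test as higher with CCl4 in Tom- and in the sums, and Ier3 in Tom+ and in the sums. Neither passed within a fraction without the 2 oil libraries whose reporter went against the label. Ier2 was lower by its adjusted p alone in Tom+ and in the sums. The differences of Fos, Fosb, Atf3, Jun, Junb, Jund and Egr1 did not pass the test. Counted as changed were genes with an adjusted p (Benjamini-Hochberg) under 0.05 in edgeR's quasi-likelihood test whose log2 fold change also exceeded 0.75 in size. By this rule 1 of 10 members was higher in Tom- hepatocytes (Myc), against 6.33% of all genes tested, and 1 of 10 in Tom+ hepatocytes (Ier3), against 2.90%. In the summed libraries 2 of 10 were higher (Ier3 and Myc), against 3.34%. No member was counted as lower in these comparisons, in which 1.59%, 2.34% and 1.44% of all genes were, although Ier2 passed on adjusted p alone in Tom+ and in the sums. The share of all genes lower by adjusted p alone was not counted. The median log2 fold change of the members was 0.14 in Tom-, 0.24 in Tom+ and 0.21 in the sums, beside medians over all genes of 0.0046, 0.0020 and 0.0044. Where groups of 3 libraries are said below not to overlap, the share of all genes without overlap was not counted. Such statements are descriptions and do not set a member apart from genes in general.

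Among the FOS partners, Fos (chromosome 12, 85473890 to 85477273) was at 5.41, 5.37 and 7.68 CPM in replicates 1, 2 and 3 of Tom- oil, compared with 1.95, 19.3 and 18.1 CPM in Tom- CCl4. In Tom+ it was at 8.61, 6.76 and 14.4 CPM with oil and at 8.31, 25.3 and 25.0 CPM with CCl4. Replicate 1 of CCl4 thus lay below the oil range in Tom- and within it in Tom+, the other two CCl4 libraries lay above it in both fractions, and the groups overlapped. In the sums the log2 fold change was 1.04 (SE 0.53, edgeR adjusted p = 0.287). Fosb, a close relative of Fos, was read at a very low level, with 0, 0.0969 and 0.0409 CPM in Tom- oil and 0.101, 0.359 and 0.718 CPM in Tom- CCl4. In Tom+ it was at 0.202, 0.0763 and 0.0979 CPM with oil and at 0.0492, 0.873 and 0.668 CPM with CCl4. The Tom- groups of Fosb did not overlap, at 0 to 40 counts per library. Its log2 fold change was large but uncertain, at 2.26 (SE 0.79, edgeR adjusted p = 0.116) in the sums. DESeq2 counted Fosb in the Tom- comparison (log2 3.04, adjusted p = 0.0388) and in the sums (log2 2.28, adjusted p = 0.0344). Atf3, a stress-induced partner that often represses its targets, was between 0.387 and 1.56 CPM and highest in replicate 3 of both CCl4 groups, at 1.56 and 1.46 CPM, with a log2 fold change of 0.29 (SE 0.48, edgeR adjusted p = 0.749) in the sums.

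The differences of the JUN genes were small beside their spread. Jun (chromosome 4, 95049034 to 95052222) was at 26.7, 26.7 and 35.5 CPM in Tom- oil and 25.9, 25.2 and 46.4 CPM in Tom- CCl4, and at 33.2, 30.0 and 48.7 CPM in Tom+ oil and 35.7, 38.4 and 45.1 CPM in Tom+ CCl4. Junb, which can hold JUN activity in check, ranged from 28.9 to 41.2 CPM with oil and from 19.9 to 42.5 CPM with CCl4. Jund, the JUN gene known for its steady level in resting cells, ranged from 71.9 to 99.2 CPM and from 72.9 to 96.6 CPM. The oil and CCl4 ranges overlapped for each of these genes when both fractions were pooled. In the sums the log2 fold changes were 0.13 (SE 0.18) for Jun, -0.09 (SE 0.16) for Junb and -0.13 (SE 0.09) for Jund, with edgeR adjusted p between 0.385 and 0.754. In Tom+ alone, Jund did not overlap between groups, with 82.5, 94.8 and 91.3 CPM in oil and 81.8, 74.6 and 72.9 CPM in CCl4, but its log2 fold change of -0.23 (SE 0.12) had an edgeR adjusted p of 0.251.

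Egr1, a zinc finger factor induced by growth factors and injury, was at 25.6, 30.8 and 69.6 CPM in Tom- oil and at 22.9, 46.2 and 36.3 CPM in Tom- CCl4. In Tom+ it was at 44.2, 42.0 and 86.1 CPM with oil and at 39.3, 58.1 and 41.0 CPM with CCl4. The highest oil value in each fraction came from replicate 3, the groups overlapped, and the log2 fold change in the sums was -0.28 (SE 0.35, edgeR adjusted p = 0.669).

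Myc (chromosome 15, 61985391 to 61990374) was at 1.42, 2.31 and 3.29 CPM in Tom- oil and at 4.60, 5.53 and 6.34 CPM in Tom- CCl4. In Tom+ it was at 3.06, 3.95 and 2.38 CPM with oil and at 3.66, 6.18 and 7.64 CPM with CCl4. The Tom- groups did not overlap, while in Tom+ the lowest CCl4 library lay below the highest oil library. Myc rose in Tom- by 1.22 on the log2 scale (SE 0.32, edgeR adjusted p = 0.0206) and in the sums by 0.98 (SE 0.21, adjusted p = 0.0280), whereas in Tom+ the difference was 0.89 (SE 0.31, adjusted p = 0.0940). In Tom+ it passed with DESeq2 (adjusted p = 0.0467) and, in edgeR, without Tom+ CCl4 replicate 1 (log2 1.13, adjusted p = 0.0352). The call in Tom- was lost without either of Tom- oil replicates 1 and 2 or Tom- CCl4 replicates 2 and 3, with log2 values of 0.97 to 1.22 and edgeR adjusted p between 0.0572 and 0.0755. Without the 2 oil libraries whose reporter went against the label it was 0.98 (edgeR adjusted p = 0.0735). The call in the sums was lost without CCl4 replicate 2 or 3 or oil replicate 1 or 2, with log2 values of 0.79 to 1.06 and edgeR adjusted p between 0.0665 and 0.112.

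Ier3, whose product dampens cell death and inflammatory signalling, was at 0.316, 0.465 and 0.0409 CPM in Tom- oil and at 0.607, 0.995 and 1.58 CPM in Tom- CCl4. In Tom+ it was at 0.116, 0.305 and 0.245 CPM with oil and at 0.714, 0.786 and 1.67 CPM with CCl4. Oil and CCl4 libraries did not overlap in either fraction, from 2 to 80 counts per library. Ier3 rose in Tom+ by 2.26 on the log2 scale (SE 0.66, edgeR adjusted p = 0.0474) and in the sums by 2.15 (SE 0.48, adjusted p = 0.0320). In Tom- the difference was 1.95 (SE 0.66), with an edgeR adjusted p of 0.0582, which passed with DESeq2 (adjusted p = 0.0229) and, in edgeR, without Tom- CCl4 replicate 1 (0.0494) or Tom- oil replicate 2 (0.0498). The Tom+ call was lost when any Tom+ library other than CCl4 replicate 1 was left out, with log2 values of 1.77 to 2.58 and edgeR adjusted p between 0.0731 and 0.200, and through the shared fit also without Tom- CCl4 replicate 2 or Tom- oil replicate 1. Without the 2 oil libraries whose reporter went against the label it was 2.59 (edgeR adjusted p = 0.106). The call in the sums was lost without CCl4 replicate 2 or 3 or oil replicate 1 or 3, with log2 values of 1.70 to 2.27 and edgeR adjusted p between 0.0542 and 0.125. The stellate cell and fibroblast markers moved with Myc and Ier3 between oil and CCl4, 5 of 6 being counted as higher in the sums, and in Tom-, where Myc was called, 6 of 6 endothelial markers were counted as higher too. The share of counts from mitochondrially encoded genes was 1.87% to 3.66% in Tom- oil and 3.43% to 5.58% in Tom- CCl4, but 3.64% to 4.28% in Tom+ oil and 2.54% to 3.16% in Tom+ CCl4. The part of these markers and shares in the differences was not tested.

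Ier2, a small nuclear protein of the immediate early class, went the other way. It was at 33.5, 34.7 and 41.8 CPM in Tom+ oil and at 20.8, 24.9 and 21.9 CPM in Tom+ CCl4, and these groups did not overlap. In Tom- it was at 30.2, 27.7 and 28.6 CPM with oil and at 18.7, 28.5 and 28.3 CPM with CCl4, where only replicate 1 stood below the oil range. In Tom+ the log2 fold change was -0.70 (SE 0.15, edgeR adjusted p = 0.00912), past the threshold on p but not that on fold. Its adjusted p in Tom+ stayed under 0.05 when any single Tom+ library or both oil libraries with a reporter against the label were left out, with log2 values from -0.78 to -0.60. It also passed the threshold on fold without Tom+ CCl4 replicate 2 (-0.78) or Tom+ oil replicate 1 (-0.76). In Tom- the log2 fold change was -0.20 (SE 0.15, edgeR adjusted p = 0.379), and in the sums -0.46 (SE 0.11, adjusted p = 0.0338).

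**Figure D2:**
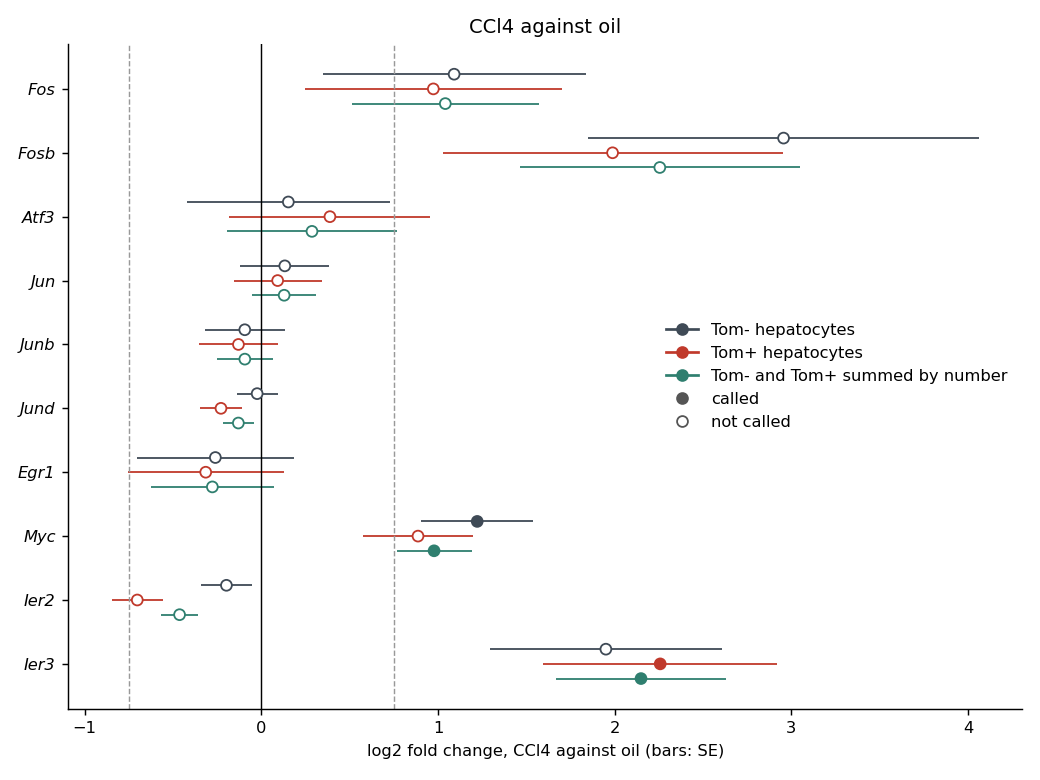
Log2 fold change of each member, CCl4 against oil, in Tom- hepatocytes, in Tom+ hepatocytes and in same-numbered libraries summed. Bars are standard errors, filled points are counted as changed and dashed lines mark the log2 threshold of 0.75. Myc, Ier3, Fos and Fosb lie beyond it in each comparison, Fos and Fosb with wide bars and open points, and Ier2 lies between -0.70 and -0.20.

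The second question was whether hepatocytes labelled Tom+ differed from those labelled Tom-. In oil the reporter separated the fractions as labelled in replicate 3 only. The comparison in oil and the interaction therefore describe the deposited labels and cannot tell marked from unmarked cells. With edgeR, 0 of 10 members were counted between Tom+ and Tom- in CCl4, against 1.96% of all genes, and 0 of 10 in oil, against 0% of all genes. By the interaction term, which asks whether the effect of CCl4 differed between fractions, 0 of 10 were counted, against 1.17% of all genes. At an unadjusted p under 0.05 these counts were 0, 1 and 1, beside 3901, 1198 and 3178 of all 17121 genes, the single member being Ier2 in both cases, and DESeq2 also counted 0 in each. The interaction log2 value of Ier2 was -0.50 (SE 0.21, edgeR adjusted p = 0.212), and -0.48 (adjusted p = 0.0505) with the replicate number as a block. As labelled, Ier2 in oil did not overlap between Tom+ and Tom-, with a log2 difference of 0.35 (SE 0.14, edgeR adjusted p = 0.671).

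Libraries of one replicate number deviated together between the fractions, and within these pairs Fos, Egr1 and Jun leaned toward Tom+. Fos was higher in Tom+ than in Tom- in 6 of 6 pairs, with log2 ratios (0.1 CPM added) of 0.66, 0.33 and 0.90 in oil and 2.04, 0.39 and 0.46 in CCl4. Egr1 was higher in 6 of 6, with 0.79, 0.44 and 0.31 in oil and 0.78, 0.33 and 0.18 in CCl4. Jun was higher in 5 of 6, the exception being CCl4 replicate 3 at -0.04. With the replicate block, Egr1 in CCl4 had a log2 difference of 0.43 (SE 0.11, edgeR adjusted p = 0.0214) and Jun of 0.34 (SE 0.11, adjusted p = 0.0464). Both fell short of the fold threshold, under which 0 of 10 members and 3.98% of all genes were counted, and 7.94% of all genes were higher by adjusted p alone in that fit. Fos had 0.85 (SE 0.31, edgeR adjusted p = 0.122). In an average over the 6 pairs, chosen after seeing the data, Egr1 had 0.47 (SE 0.09, edgeR adjusted p = 0.159), Fos 0.77 (SE 0.20, adjusted p = 0.253) and Jun 0.33 (SE 0.08, adjusted p = 0.247). In this average 0% of all genes tested passed the adjusted p, and 3 members (Fos, Jun and Egr1) and 2091 genes had an unadjusted p under 0.05. Pairs 1 and 2 of oil were not separated by the reporter, so the direction in these pairs rests on the deposited labels. Fos, Egr1 and Jun were singled out from the 10 members by their ratios. The share of all genes with the same direction in every pair was not counted. Jund was lower in Tom+ in 3 of 3 CCl4 pairs, by a log2 difference of -0.18 (SE 0.12, edgeR adjusted p = 0.382).

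**Figure D3:**
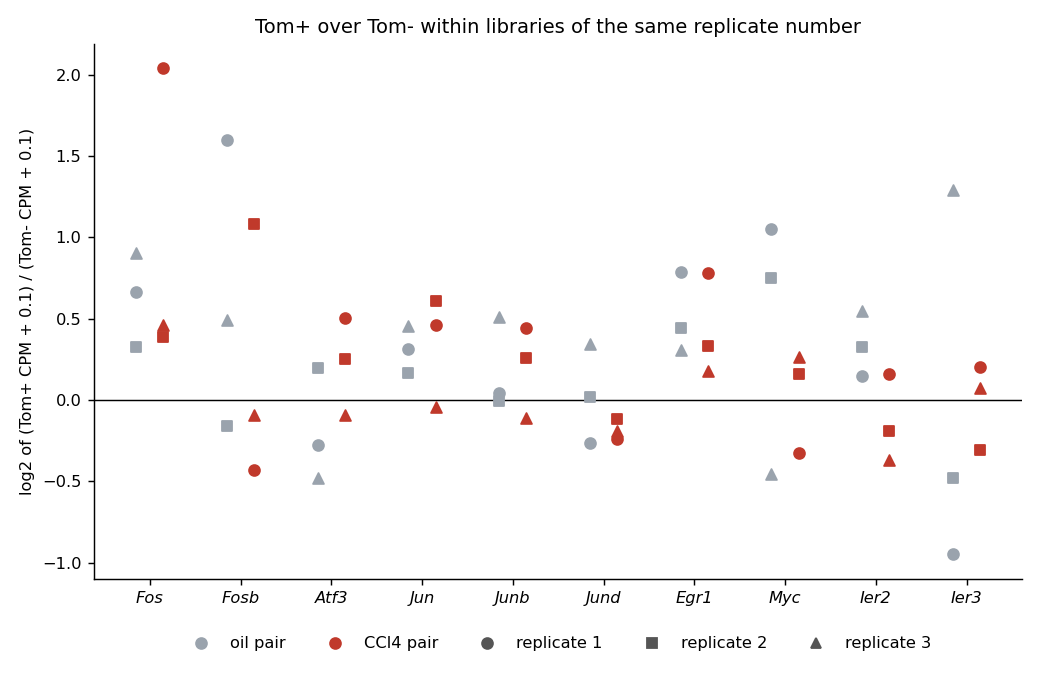
Log2 ratio of Tom+ to Tom- CPM, with 0.1 CPM added to both, for each member in the 3 oil pairs (grey) and the 3 CCl4 pairs (red), marker shape giving the replicate number. Points of Fos and Egr1 lie above 0 in all 6 pairs, from 0.18 to 2.04, and the CCl4 points of Jund lie below 0.

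The members were then read by replicate number. In Tom- CCl4, replicate 1 had the lowest value for 7 of 10 members (Fos, Fosb, Junb, Egr1, Ier2, Ier3 and Myc), and in Tom+ CCl4 for 8 of 10, the same 7 and Jun. Jund was highest in replicate 1 of both CCl4 groups. The share of all genes lowest or highest in that replicate was not counted, so these counts are not set apart from genes in general. Over 8561 genes, the deviations of Tom- and Tom+ CCl4 replicate 1 from their group means also went together (r = 0.66). Between the 3 CCl4 numbers, with the log2 values of both fractions averaged, Fos differed by up to 2.42 on the log2 scale, Fosb by 2.19, Atf3 by 1.60, Ier3 by 1.19 and Junb by 0.82. The largest difference within a CCl4 pair was 2.04 for Fos, 1.08 for Fosb, 0.50 for Atf3, 0.31 for Ier3 and 0.44 for Junb. In oil, replicate 3 was highest for Fos, Jun and Egr1 in both fractions, and Egr1 differed by 1.20 between numbers. In those 2 oil libraries the 6 Kupffer cell and macrophage markers summed to 57.2 CPM (Tom-) and 79.5 CPM (Tom+), beside 10.7 to 21.0 CPM in the other oil libraries, and their part in the higher Fos, Jun and Egr1 was not tested. In CCl4 replicate 1 the stellate cell and fibroblast markers summed to 59.5 CPM (Tom-) and 45.6 CPM (Tom+), the lowest of their groups, which was not tested either. Jun, Junb, Atf3, Ier3 and Myc were highest in CCl4 replicate 3 in both fractions. There the Kupffer cell and macrophage markers summed to 81.4 CPM (Tom-) and 89.3 CPM (Tom+), the highest of their groups, and their part was not tested.

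Leaving out the CCl4 replicate with the low values, a choice made on the measured values, raised the number of members counted in the sums from 2 to 4, against 3.34% of all genes higher with that replicate and 3.45% without it. Fos then had a log2 fold change of 1.44 (edgeR adjusted p = 0.0187), Fosb 2.78 (adjusted p = 0.0161), Ier3 2.39 (adjusted p = 0.0317) and Myc 1.17 (adjusted p = 0.0108). That replicate was picked for low values of these same members, so higher fold changes follow in part from the choice. The adjusted p are therefore descriptions only. Without CCl4 replicate 2, CCl4 replicate 3 or oil replicate 1, both Ier3 and Myc lost their calls in edgeR with the adjusted p given above.

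**Figure D4:**
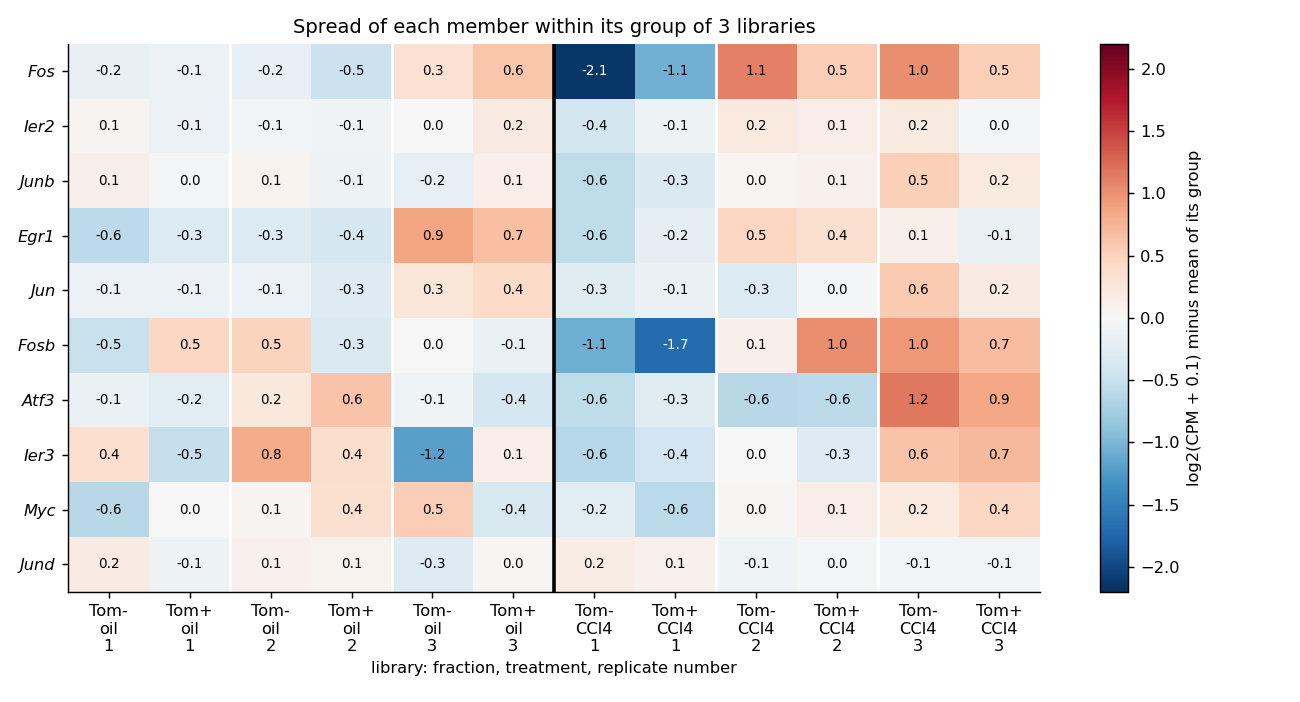
Deviation of log2(CPM + 0.1) of each member (rows) from the mean of its group of 3, for the 12 libraries ordered by treatment and replicate number, with Tom- and Tom+ of one number side by side and a black line between oil and CCl4. Blue cells fill most of the CCl4 replicate 1 columns, to -2.1 for Fos, while Jund is weakly red there.

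Across the 12 libraries, deviations from the group mean were most alike for Fos and Ier2 (Pearson r = 0.90), Fos and Junb (r = 0.84) and Junb and Ier2 (r = 0.78), among the 7 members with a mean of at least 1 CPM. Jund ran opposite to the others, with r from -0.72 (Egr1) to -0.23 (Junb). These are descriptions over n = 12 libraries that share their normalization and, within a pair, their replicate number. When each member was scaled to its mean and SD over the libraries and the 7 were averaged, the genes outside the list whose log2 CPM was most like this average included Srrm4 (r = 0.81), Cbx5 (r = 0.81), Gm10676 (r = 0.78), Osgep (r = 0.77), Macf1 (r = 0.77), Junos (r = 0.77) and Fam47e (r = 0.76), out of 13054 genes compared. Junos lies across the start of Jun on the other strand, so that it may share reads with a member of the average it was compared with. For deviations from the group mean the closest were Cables2 (r = 0.95), Rilp (r = 0.95), Naa16 (r = 0.95), Srrm4 (r = 0.95), Sftpa1 (r = 0.95), Foxk2 (r = 0.94), Abi2 (r = 0.93) and Atg4c (r = 0.93). Srrm4 was the gene found by both measures, which use the same libraries. Picked as the highest of 13054 values over 12 libraries, such r can arise without any relation to the members, and they were not tested.

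The genes that act with, before or after the members were read from 6 lists of 104 genes, of which 98 were tested. In Tom- hepatocytes 9 of the 98 were counted as higher with CCl4 and 3 as lower, in Tom+ 5 and 3, and in the sums 4 and 3. The shares of all genes counted were 6.33% higher and 1.59% lower in Tom-, 2.90% and 2.34% in Tom+, and 3.34% and 1.44% in the sums. Their median log2 fold changes were 0.08, 0.10 and 0.07. In the Tom- comparison 6 of 6 endothelial markers and 5 of 5 tested stellate cell and fibroblast markers were also counted as higher, and their part in the rises of the genes below was not tested.

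Feedback inhibitors switch early signalling off. Of 16 tested, 4 were higher in Tom- (Dusp5, Dusp8, Nfkbiz and Socs3), and in Tom+ 2 were higher (Dusp5 and Dusp8) and 1 lower (Spry4). Dusp5, a nuclear phosphatase of ERK, rose by 2.50 on the log2 scale in Tom- (SE 0.45, edgeR adjusted p = 0.00318) and by 1.74 in Tom+ (SE 0.43, adjusted p = 0.0211), from 0.163 to 0.475 CPM in the oil libraries to 0.972 to 2.15 CPM in the CCl4 libraries. Spry4, an inhibitor of receptor tyrosine kinase signalling, fell by 1.12 in Tom+ (SE 0.18, edgeR adjusted p = 0.00227). Of 20 rapidly induced genes of other function, 4 were higher in Tom- (Sgk1, Plk2, Sik1 and Ccn1), and in Tom+ 1 was higher (Ccn1) and 1 lower (Gadd45g). Ccn1, a secreted matrix protein, rose by 0.82 in Tom- (SE 0.20, edgeR adjusted p = 0.0160) and by 0.87 in Tom+ (SE 0.20, adjusted p = 0.0175).

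Of the 15 other immediate early transcription factors tested, Nr4a3, an orphan nuclear receptor, was the one counted without the replicate block, in Tom- and in the sums. It had 10, 26 and 22 counts in Tom- oil replicates 1, 2 and 3 and 0 to 2 counts in each of the other 9 libraries. Against a floor of 3 counts per library it was at least 5.48-fold lower in Tom- CCl4 than in Tom- oil. The 10 counts were those of Tom- oil replicate 1, whose reporter went against its label. Nr4a3 was named because it was counted with these same libraries, so this is no check of the label.

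Of 16 upstream kinases and promoter factors, Elk3, an ETS factor of the serum response element, was the one counted. It rose by 2.06 in Tom- (SE 0.23, edgeR adjusted p = 0.000179), was lower in Tom+ than in Tom- with CCl4 (log2 -0.93, adjusted p = 0.0289) and had an interaction of -1.83 (adjusted p = 0.0195). Elk3 went from 1.43 to 2.82 CPM in Tom- oil to 8.65 to 9.43 CPM in Tom- CCl4, the group in which the endothelial markers also summed highest, and the part of such cells was not tested. Of 14 heat shock genes, which also respond to tissue dissociation, Hspb1 was lower in Tom- (log2 -1.31, edgeR adjusted p = 0.0112), and Hspa1a and Hspa1b were higher in Tom+ (log2 1.14 and 1.13, adjusted p = 0.0316 and 0.00987). Between Tom+ and Tom- in CCl4, Hspb1 was higher (log2 1.16, edgeR adjusted p = 0.0392), and Gadd45g and Elk3 were lower. By the interaction term Ier5, a regulator of the heat shock response, was also lower (log2 -0.93, edgeR adjusted p = 0.0487). These were 2 of the 98 genes, against 1.17% of all genes. With the replicate block the interaction counted 10 of the 98, against 5.48% of all genes, of which Maff, Hspb1 and Dnajb1 were higher and Elk3, Ier5, Spry4, Sik1, Gadd45b, Gadd45g and Jdp2 lower. The block also counted Ccn2 as lower in Tom+ than in Tom- with CCl4 (log2 -0.89, edgeR adjusted p = 0.0244), and Elk3 as higher in Tom+ with oil (log2 0.93, edgeR adjusted p = 0.0382), where 0.234% of all genes were counted.

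Several of these calls rested on the 2 oil libraries whose reporter went against the label. Without them, a setting applied to these lists after seeing the data, 5 of the 12 calls in Tom- held (Nr4a3, Sgk1, Dusp5, Elk3 and Hspb1), while Plk2, Sik1, Dusp8, Nfkbiz and Socs3 had edgeR adjusted p between 0.0572 and 0.130 and Ccn1 a log2 fold change of 0.62. In that fit 4.32% of all genes were counted as higher in Tom- and 1.14% as lower, and 2.09% and 1.42% in Tom+. In Tom+ 4 of the 8 calls held, those of Gadd45g, Ccn1 and Spry4 among them, while Dusp5, Dusp8, Hspa1a and Hspa1b had edgeR adjusted p between 0.0567 and 0.151. The interaction of Elk3 was -1.96 (edgeR adjusted p = 0.0335) and that of Ier5 -1.05 (adjusted p = 0.0686), against 0.850% of all genes counted. Through the shared fit, the call of Hspb1 between Tom+ and Tom- in CCl4 was also lost (log2 1.15, edgeR adjusted p = 0.0671). When single libraries were left out in turn, Plk2, Dusp5, Elk3 and Hspb1 kept their calls in Tom- each time, as did Gadd45g, Spry4 and Hspa1b in Tom+ and Dusp5 in the sums, and each other call of the wider lists was lost at least once.

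**Figure D5:**
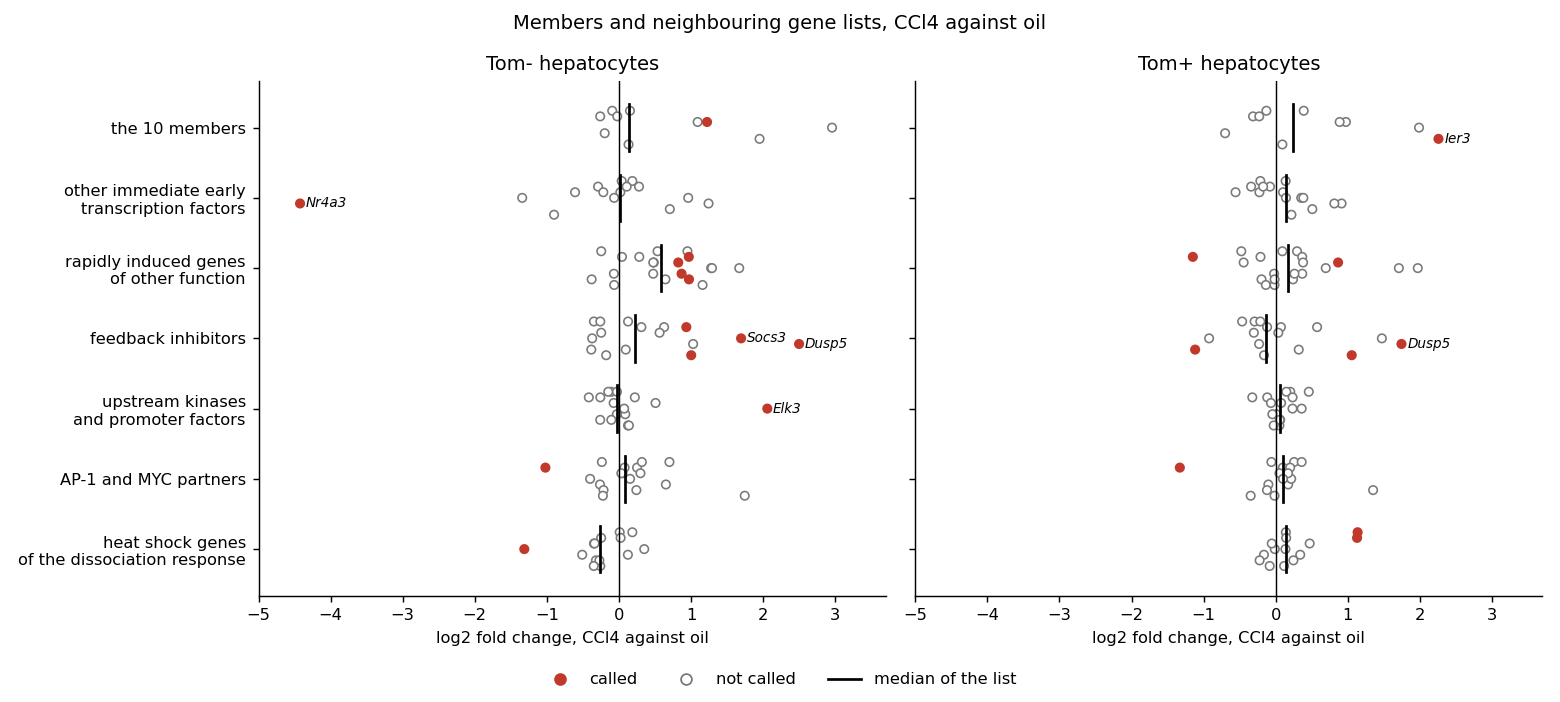
Log2 fold change, CCl4 against oil, of the 10 members and of the genes of 6 neighbouring lists in Tom- (left) and Tom+ (right), with filled points counted as changed, open points not counted and black lines for list medians. Most points lie within 1 of 0, Dusp5 stands out to the right in both fractions and Nr4a3 to the left in Tom- only, where its fitted value depends on the few counts in CCl4.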

How the data were processed

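Bulk RNA-seq of 12 libraries was analysed, grouped by fraction and treatment from the labels. The processing notes of the authors name fastp (v0.23.2) for reads, HISAT2 (v2.1.0) with the mm10 genome, and DESeq2 (v1.42.1). The deposited table holds expected counts without normalization, and per library 30.4% to 32.9% of its values above 0 had a fraction. The design had assumed whole counts, so that the deposited expected counts were rounded. Counts of Jun, Junb and Jund were not whole in 4, 6 and 5 libraries. The program that counted the reads, its strand setting and its annotation release were not given in the sources used here.

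The members, the lists and the alternatives were chosen with earlier results of these data known. The tests were run with edgeR (v4.0.16) under R (v4.3.3), using TMM normalization, filterByExpr and the robust quasi-likelihood test in one fit of 12 libraries. Adjusted p-values were taken over all 17121 genes tested, or 17743 in the sums. The tests were also run on simulated data in which each library was drawn independently. Those runs cannot show how libraries that deviate together by replicate number affect the tests, and no result here rests on them. CPM are TMM-normalized, and TPM were computed from the rounded counts and deposited lengths. Named genes are the 10 members, in the wider lists at most 6 per list and comparison with the lowest adjusted p among those counted, and the 8 genes of most similar pattern by 2 measures. Some genes that this rule names are not reported here. Marker lists were fixed with the design.

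The pairing of Tom+ and Tom- rests on the replicate numbers in the labels. Over 8561 genes, deviations from the group mean of same-numbered libraries correlated at 0.348 to 0.549 in oil and 0.504 to 0.707 in CCl4, so the replicate block is given where it bears on a call. Alternatives were the block, DESeq2 (v1.42.0), RLE normalization, no filter, the adjusted p alone, the 6 libraries of a comparison, an average of both fractions in place of sums, and leaving out libraries. Figures were drawn in matplotlib (v3.10.9) under Python (v3.11.15).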

Additional observations from a re-analysis of the deposited data

How the results depend on the processing

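Ier3 and Myc were higher with CCl4 than with oil under each alternative run, while their calls depended on the libraries kept. Levels under about 1 CPM (Fosb, Ier3, Atf3) rest on few counts, and a miss there says little. In Tom- the count of members called between CCl4 and oil, in either direction, was 3 with DESeq2 (Fosb, Ier3 and Myc), 0 without the 2 oil libraries whose reporter went against the label, and 0 to 2 when single libraries were left out. In Tom+ it was 2 with the adjusted p alone (Ier2 and Ier3, Ier2 being lower), 2 with DESeq2 (Ier3 and Myc), 0 without those 2 oil libraries, 0 with the replicate block and 0 to 2 when single libraries were left out. In the sums it was 0 to 4 when single numbers were left out. For DESeq2, the adjusted p alone and single libraries left out, the share of all genes called between CCl4 and oil was not counted. With single numbers left out of the sums, the share of all genes higher was counted only without CCl4 replicate 1. The member counts under these alternatives are therefore descriptions and are not set apart from genes in general.

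The replicate numbers of oil and CCl4 were taken as shared numbers only, with correlations of same-numbered libraries of 0.0107 to 0.111 in Tom- and 0.00901 to 0.304 in Tom+. With the replicate block, Ier3 in Tom+ had a log2 value of 2.22 (edgeR adjusted p = 0.0757) and the block changed no other call of a member. Of the genes in the wider lists, the block added calls of Klf2 (edgeR adjusted p = 0.0135), Ccn2 and Gadd45b as higher in Tom-, and of Ccn2 and Ier5l in the sums. In the same block Atf3 turned to -0.11 in Tom-, and the interaction turned to 0.21 for Fos, 0.027 for Jun and 0.012 for Junb.

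The other values that changed sign belonged to members that were not counted, and the cause was not tested. Without the 2 oil libraries, Jun in Tom+ was -0.036, Jund in Tom- 0.072, Myc between Tom+ and Tom- in oil -0.048, and the interaction 0.024 for Egr1 and 0.12 for Myc. With single libraries left out, CCl4 against oil spanned log2 values of -0.85 to 0.47 (Tom-), -0.23 to 0.83 (Tom+) and -0.46 to 0.59 (sums) for Atf3, -0.52 to 0.31, -0.51 to 0.097 and -0.48 to 0.16 for Egr1, -0.22 to 0.29, -0.042 to 0.33 and -0.052 to 0.30 for Jun, -0.40 to 0.14, -0.24 to 0.013 and -0.27 to 0.075 for Junb, and -0.15 to 0.064 in Tom- for Jund. Tom+ against Tom- in CCl4 spanned -0.53 to 1.09 for Atf3, -0.19 to 1.18 for Fosb, -0.51 to 0.39 for Ier3, -0.090 to 0.45 for Junb and -0.17 to 0.33 for Myc, and in oil -0.59 to 0.058 for Atf3, -0.85 to 0.35 for Ier3 and -0.11 to 0.11 for Jund. The interaction spanned -0.38 to 1.24 for Atf3, -0.63 to 0.36 for Egr1, -0.63 to 0.26 for Fos, -0.37 to 0.83 for Ier3, -0.19 to 0.31 for Jun and -0.27 to 0.27 for Junb.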
